A study of Caenorhabditis elegans with 36 samples.

Results

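P granules are condensates of RNA and protein on the cytoplasmic face of the nuclei of C. elegans germ cells, and the genes described here are those that encode 10 of their named components: pgl-1, pgl-2, pgl-3, glh-1, glh-2, glh-3, glh-4, deps-1, csr-1 and ife-1. They are picked out by sequence name, a rule that uses no measured value, but the set was chosen with earlier results of these data known. They are 10 of the 45904 gene names in the deposited tables. Their mRNA and the small RNAs that map to them were measured in whole day 1 adults, with 3 libraries for each of 4 groups in each assay. The groups were mut-16 mutants at 25°C, mut-16 mutants at 20°C, wild-type animals at 25°C and wild-type animals at 20°C. The mut-16 mutants carried the pk710 allele and are represented by a single strain, the wild-type strain was N2, and each library was made from a pool of animals grown from synchronized L1 larvae. Adults were harvested after about 48 h at 25°C and about 68 h at 20°C, so that temperature cannot be told apart from time since plating. The labels call the 3 libraries of a group biological replicates without saying whether they came from separate cultures, so the p-values measure the spread between these libraries.

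P granules collect germline mRNAs as they leave the nucleus and hold much of the machinery that uses small RNAs to identify transcripts. PGL and GLH proteins form their core, and next to P granules lie Mutator foci, condensates built on the protein MUT-16, in which RNA-dependent RNA polymerases amplify many of the small interfering RNAs that silence genes. The comparisons below ask how transcript levels of P granule components and the small RNAs matching them stand in adults without functional MUT-16, at each temperature.

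The 10 genes fall into 5 kinds by function. pgl-1 (ZK381.4, chromosome IV, 6974441 to 6977318), pgl-2 (B0523.3, chromosome III, 8670543 to 8675435) and pgl-3 (C18G1.4, chromosome V, 4755979 to 4758587) encode the PGL proteins, of which PGL-1 and PGL-3 are constitutive P granule scaffolds with RNA-binding RGG repeats. glh-1 (T21G5.3, 6854478 to 6857536), glh-2 (C55B7.1, 6513928 to 6517507), glh-3 (B0414.6, 5792321 to 5795114) and glh-4 (T12F5.3, 3727027 to 3731179), all on chromosome I, encode germline helicases, DEAD-box proteins related to Vasa of Drosophila. deps-1 (Y65B4BL.2, chromosome I, 506473 to 509056) encodes a P granule protein needed for normal accumulation of PGL-1 and GLH-1. csr-1 (F20D12.1, chromosome IV, 7957267 to 7962157) encodes an Argonaute that binds small RNAs antisense to germline-expressed genes, and ife-1 (F53A2.6, chromosome III, 13343417 to 13344618) encodes an eIF4E cap-binding protein that associates with PGL-1. Positions are in WBcel235, the assembly used by the WS258 release to which the authors mapped their reads.

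Several of the genes share sequence with others, which limits what a count on them means. glh-1 and glh-2 have 69 stretches of 75 bases (the mRNA read length) in common, and their mRNA counts were fractional in all 12 libraries while their sum was a whole number in all 12 (within 0.002), so that reads appear to have been divided between them. glh-4 shares 39.3% of its 75-base stretches, and 71.4% of its 22-base stretches (the usual length of amplified small RNAs), with the pseudogene T08D2.3 (chromosome X, 173180 to 177000). The 5′ end of frpr-10 is annotated across csr-1, but frpr-10 held at most 0.386 RPM (its reads per 1000000 reads of the library) in any mRNA library. The 3′ end of dro-1 overlaps the start of ife-1, with 18.9% of the 75-base stretches of ife-1 shared, and fli-1 shares 3.36% of those of pgl-2. No stretch of 75 bases in pgl-1, pgl-3, glh-3 or deps-1 occurred in another gene's transcripts. The mRNA counts of deps-1 were nevertheless whole numbers in only 7 of 12 libraries, and those of glh-4 and ife-1 in 0. The sum of glh-4 and T08D2.3 was whole in all 12, and that of ife-1 and dro-1 in 0. In small RNA-seq, counts were whole in 6 of 12 libraries for pgl-2, 2 for deps-1, 1 for pgl-3 and 0 for each other member. Among the latter were pgl-1 and glh-3, which shared only 0.0406% and 0.0808% of their 22-base stretches with other genes. The source of the fractions in deps-1 and ife-1, and of those in small RNA-seq, was not tested. deps-1 overlaps a gene on the opposite strand over 109 bases and pgl-2 a pseudogene over 1855 bases, and the strand setting of the counting is not given in the sources used here.

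Because temperature is one factor of the design and the 10 genes moved together in one of the groups, their promoters were read for the core of the heat shock element, the site of heat shock factor, as the 8-base patterns GAANNTTC and TTCNNGAA on both strands. Each window ran from 250 bases before the annotated gene start to 50 bases after it. The windows of pgl-1, pgl-3 and csr-1 are shown 5′ to 3′ on the strand of the gene, as those of both PGL scaffold genes, which held matches, and of the Argonaute gene, which held none, with matches in capitals. They span chrIV:6977269-6977568 on the minus strand for pgl-1, chrV:4755729-4756028 on the plus strand for pgl-3 and chrIV:7957017-7957316 on the plus strand for csr-1.
pgl-1: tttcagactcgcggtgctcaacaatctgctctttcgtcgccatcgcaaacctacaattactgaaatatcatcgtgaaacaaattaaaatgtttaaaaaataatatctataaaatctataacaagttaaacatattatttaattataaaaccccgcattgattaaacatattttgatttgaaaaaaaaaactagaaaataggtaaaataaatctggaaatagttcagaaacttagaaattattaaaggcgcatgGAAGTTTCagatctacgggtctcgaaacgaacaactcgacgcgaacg
pgl-3: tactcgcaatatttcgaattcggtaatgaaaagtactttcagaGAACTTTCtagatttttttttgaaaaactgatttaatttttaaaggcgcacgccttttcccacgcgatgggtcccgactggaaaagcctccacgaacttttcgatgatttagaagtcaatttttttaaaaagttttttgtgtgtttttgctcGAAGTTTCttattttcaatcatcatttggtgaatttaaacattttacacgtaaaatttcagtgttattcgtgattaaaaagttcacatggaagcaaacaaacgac
csr-1: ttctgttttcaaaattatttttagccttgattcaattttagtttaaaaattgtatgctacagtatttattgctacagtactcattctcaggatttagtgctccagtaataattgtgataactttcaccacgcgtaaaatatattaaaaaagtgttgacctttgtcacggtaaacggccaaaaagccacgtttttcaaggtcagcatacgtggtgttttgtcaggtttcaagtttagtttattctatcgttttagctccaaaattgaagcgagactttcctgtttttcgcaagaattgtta
GAANNTTC began at base 4 of the annotated pgl-1 gene and at 207 and 55 bases before the start of pgl-3, and neither pattern was in the window of csr-1. Of all 10 windows, 5 held a match (pgl-1, pgl-3, glh-1, glh-2 and glh-3), beside 32.5% of 19973 promoters of protein-coding genes of the same length. A match is a description of these letters and not evidence that a factor binds there.

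Levels are given in RPM, with each library's total as deposited. Library totals were 15432009 to 34195602 reads in mRNA-seq and 4760502 to 19060841 in small RNA-seq, the lowest being replicate 3 of wild-type at 25°C in small RNA-seq. All 10 genes had reads in all 24 libraries and passed the filter on low counts in both assays. The targeted gene, mut-16 (B0379.3), had 49.4, 40.6 and 42.3 RPM of mRNA in mut-16 mutants at 25°C, against 127, 109 and 105 RPM in wild-type at 25°C. At 20°C it had 64.3, 51.7 and 40.8 RPM in the mutants, against 127, 117 and 119 RPM in wild-type, so that each mRNA library matched its genotype label. These levels do not check the temperature labels or the small RNA libraries. Fold changes come from edgeR's quasi-likelihood test over all genes with TMM scaling, which sets libraries on the scale at which most genes change least, and a gene counts as changed at a Benjamini-Hochberg adjusted p under 0.05. In mRNA-seq the TMM factors were 1.11 to 1.15 in mut-16 mutants at 25°C and 0.898 to 1.01 in the other 9 libraries, so that for these mutants fitted falls at 25°C exceed those in RPM. Standard errors (SE) and 95% intervals belong to this fit.

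Per kilobase of exon (RPM divided by exonic length in kilobases, RPKM), mRNA levels of the 10 genes spanned less than 10-fold in every group. In mut-16 mutants at 25°C, glh-1 was highest with 187 ± 7.6 RPKM (SD, n = 3 here and below), followed by pgl-1 with 169 ± 6.76, ife-1 with 162 ± 13, csr-1 with 94 ± 2.72, deps-1 with 93.2 ± 9.69, pgl-3 with 82.9 ± 8.39, glh-4 with 48 ± 5.67, glh-2 with 46.9 ± 5.83, pgl-2 with 32.7 ± 2.07 and glh-3 with 25.6 ± 1.02 RPKM. In wild-type at 20°C, ife-1 was highest with 271 ± 24.3 RPKM, followed by pgl-1 with 207 ± 9.58, glh-1 with 185 ± 26.3, csr-1 with 150 ± 9.39, deps-1 with 109 ± 10.2, pgl-3 with 108 ± 15.8, glh-2 with 71.4 ± 10.4, glh-4 with 55.9 ± 11.7, pgl-2 with 44.5 ± 2.37 and glh-3 with 30.7 ± 3.56 RPKM. Neighbours in these orders that lay within their summed SDs were pgl-1 and ife-1, csr-1 and deps-1, deps-1 and pgl-3, and glh-4 and glh-2 in mut-16 mutants at 25°C. In wild-type at 20°C they were pgl-1 and glh-1, glh-1 and csr-1, deps-1 and pgl-3, glh-2 and glh-4, and glh-4 and pgl-2. glh-1 was thus the most abundant in mut-16 mutants at 25°C and stood behind ife-1 and pgl-1 in wild-type at 20°C, while pgl-2 and glh-3 were the least abundant in both groups.

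**Figure D1:**
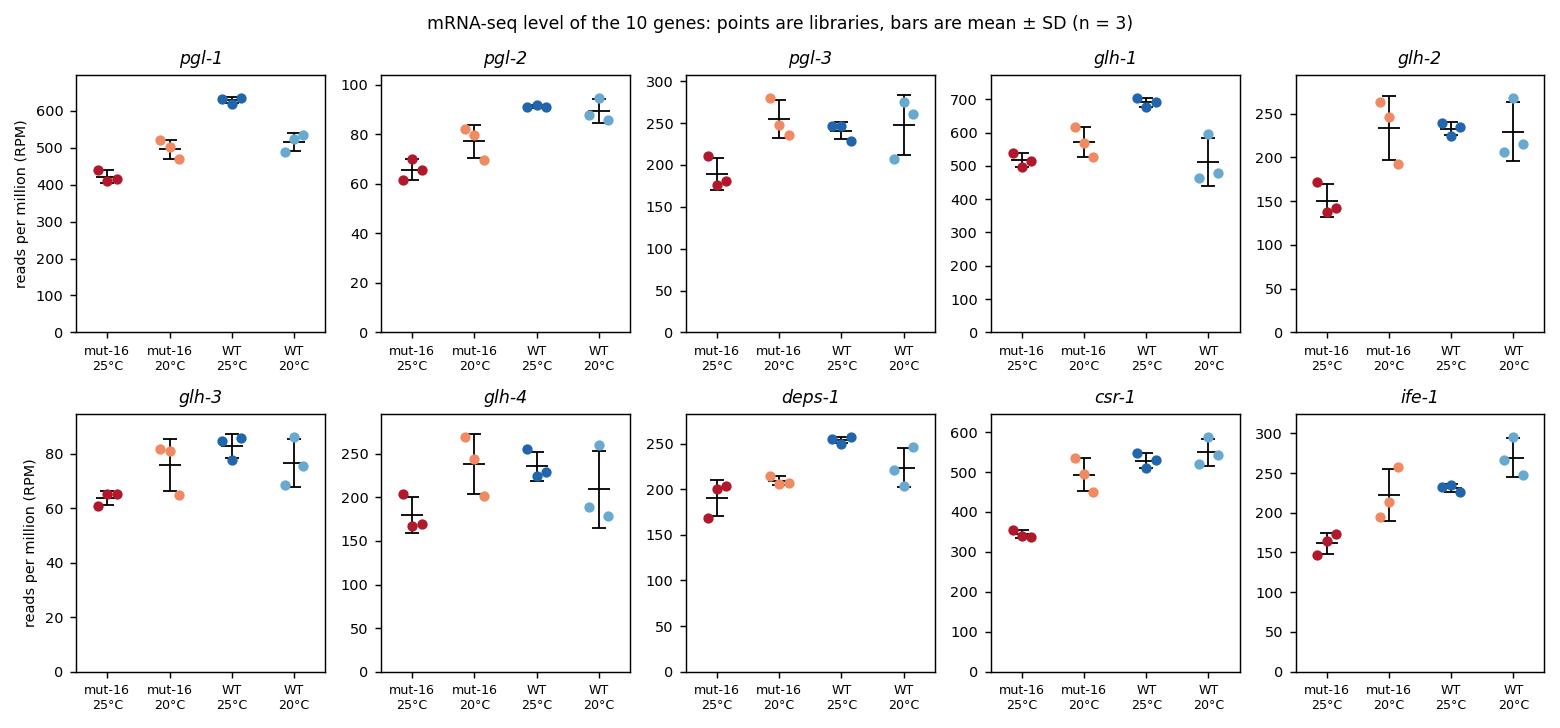
mRNA-seq levels in RPM (vertical axes, each from 0) of the 10 genes in the 4 groups (horizontal axes); points are the 3 libraries of a group, and bars are the mean ± SD. In every panel the 3 libraries of mut-16 mutants at 25°C lie below the 3 of wild-type at 25°C, and pgl-1 and glh-1 are highest in wild-type at 25°C, at 620 to 635 and 676 to 704 RPM.

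At 25°C, all 10 genes had less mRNA in mut-16 mutants than in wild-type, with log2 fold changes of -0.55 to -0.83, and the libraries of the 2 genotypes did not overlap for any of them. Non-overlap was not counted over all genes, here or below, so it describes the levels of the named genes only. All 10 passed the test, beside 32.6% of the 14623 genes tested that were lower, and 0 were higher (0 at an unadjusted p under 0.05, and 0 by DESeq2), beside 41.1% of all genes that were higher. The 10 genes together held 2227 to 2362 RPM in mut-16 mutants at 25°C, against 3156 to 3285 RPM in wild-type at 25°C. csr-1 had 356, 340 and 338 RPM in mut-16 mutants at 25°C, against 547, 510 and 529 RPM in wild-type at 25°C. Its log2 fold change was -0.82 (SE 0.09, edgeR adjusted p = 1.25e-06). pgl-1 had 441, 409 and 416 RPM in mut-16 mutants at 25°C, against 631, 620 and 635 RPM in wild-type at 25°C. The libraries of each genotype lay close together (log2 fold change -0.78, SE 0.08, edgeR adjusted p = 6.66e-07). glh-2 had the largest fitted fall of the helicase genes, with 172, 138 and 142 RPM in mut-16 mutants at 25°C, against 239, 225 and 235 RPM in wild-type at 25°C (log2 fold change -0.83, SE 0.14, edgeR adjusted p = 7.99e-05). glh-1, the helicase gene with the most mRNA, had 539, 497 and 514 RPM in mut-16 mutants at 25°C, against 704, 676 and 693 RPM in wild-type at 25°C (log2 fold change -0.63, SE 0.10).

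The other 6 genes stood close together. ife-1 had 147 to 173 RPM in mut-16 mutants at 25°C, against 226 to 235 RPM in wild-type at 25°C, and pgl-2 had 61.6 to 69.9 RPM, against 90.9 to 91.9 RPM. deps-1 had 168, 200 and 204 RPM in mut-16 mutants at 25°C, against 255, 250 and 257 RPM in wild-type at 25°C (log2 fold change -0.62, SE 0.09). The smallest fall was that of pgl-3, a paralog of pgl-1, with 211, 176 and 181 RPM in mut-16 mutants at 25°C, against 246, 247 and 229 RPM in wild-type at 25°C. Its log2 fold change was -0.55 (SE 0.12, edgeR adjusted p = 6.90e-04). glh-3 fell by 0.58 and glh-4 by 0.60 on the log2 scale. With library totals in place of TMM, all 10 stayed lower and past the threshold, while the median of all genes moved up to 0.37, from 0.16 with TMM, and the split of calls over all genes moved to 7239 higher and 2672 lower, beside 6016 higher and 4761 lower with TMM. All 10 genes lay below that median with either scaling, at -0.71 to -0.99 with TMM. The choice between these scalings shifts each gene and the median nearly alike, so it hardly moves this distance. With at least 10 counts in every library, the distance was -0.43 to -0.71.

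At 20°C, no such fall passed the test in mut-16 mutants. Of the 10 genes, 0 were called higher and 0 lower by edgeR (1 higher, glh-1, and 0 lower at an unadjusted p under 0.05), beside 25.9% of all genes higher and 11.2% lower. DESeq2 called 0 higher and 1 lower, ife-1. With library totals edgeR also called ife-1 lower, and calls over all genes stood at 3101 higher and 2373 lower, beside 3783 and 1642 with TMM. pgl-1 had 520, 501 and 469 RPM in mut-16 mutants at 20°C, against 489, 525 and 534 RPM in wild-type at 20°C, and the 95% interval of its log2 fold change ran from -0.13 to 0.20. csr-1 had 535, 494 and 451 RPM in mut-16 mutants at 20°C, against 519, 587 and 542 RPM in wild-type at 20°C (95% interval -0.25 to 0.12). The widest interval was that of glh-4, -0.05 to 0.60, where wild-type libraries ran from 179 to 260 RPM. Without replicate 2 of wild-type at 20°C, the library with the most glh-1, glh-2, glh-3 and glh-4 mRNA of its group, glh-1 and glh-4 were called higher in mut-16 mutants at 20°C (log2 fold changes 0.36 and 0.45). Without replicate 3 of mut-16 at 20°C, ife-1 was called lower (-0.39). pgl-2 had 82.2, 79.7 and 69.6 RPM in mut-16 mutants at 20°C, against 87.7, 94.7 and 85.6 RPM in wild-type at 20°C, with no overlap. The 95% interval of its log2 fold change ran from -0.30 to 0.06. Without a filter, edgeR called pgl-2 (-0.24, edgeR adjusted p = 0.0447) and ife-1 (-0.30) lower, beside 2474 of 20517 genes.

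The response to 25°C differed between the genotypes. In mut-16 mutants, all 10 genes were called lower at 25°C than at 20°C, with log2 fold changes of -0.45 to -0.94, and 0 higher (0 at an unadjusted p under 0.05, and 0 by DESeq2), beside 32.3% of all genes lower and 40.2% higher. In RPM, 6 of the 10 did not overlap between the groups and the other 4 did, a count not made over all genes. The calls rested in part on the scaling. With library totals, 8 of 10 were called lower, without deps-1 (log2 fold change -0.13) and glh-1 (-0.15), and calls over all genes moved to 7663 higher and 1814 lower, beside 5883 and 4728 with TMM. The sign stayed negative for all 10 in all 14 fits tried. Against the median over all genes the 10 lay at -0.60 to -1.09, a distance that the choice between these scalings hardly moves. With at least 10 counts in every library, that distance was -0.31 to -0.81. csr-1 stood at 356, 340 and 338 RPM in mut-16 mutants at 25°C, against 535, 494 and 451 RPM at 20°C, with no overlap (log2 fold change -0.83, SE 0.09, edgeR adjusted p = 1.74e-06). glh-2 had the largest fall, with 172, 138 and 142 RPM at 25°C, against 263, 246 and 192 RPM at 20°C (log2 fold change -0.94, SE 0.14). deps-1 and glh-1 fell least, with 168, 200 and 204 RPM of deps-1 at 25°C, against 215, 206 and 207 RPM at 20°C (log2 fold change -0.45, SE 0.09). For glh-1 the groups overlapped, at 539, 497 and 514 RPM at 25°C, against 617, 570 and 528 RPM at 20°C. pgl-1 had 441, 409 and 416 RPM at 25°C, against 520, 501 and 469 RPM at 20°C (log2 fold change -0.55, SE 0.08).

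In wild-type animals, 2 of the genes were higher at 25°C and 0 were lower, beside 22.6% of all genes higher and 9.78% lower. glh-1 had 704, 676 and 693 RPM at 25°C, against 463, 596 and 479 RPM at 20°C, with no overlap (log2 fold change 0.41, SE 0.10, edgeR adjusted p = 0.00577). pgl-1 had 631, 620 and 635 RPM at 25°C, against 489, 525 and 534 RPM at 20°C, again with no overlap (log2 fold change 0.27, SE 0.08, edgeR adjusted p = 0.0155). The call of pgl-1 was lost without replicate 1 of wild-type at 20°C (edgeR adjusted p = 0.069) and without replicate 1 or replicate 3 of wild-type at 25°C (0.0601 and 0.0541). At an unadjusted p under 0.05, 1 gene was lower, ife-1, and DESeq2 also called it lower. It had 233, 235 and 226 RPM at 25°C, against 266, 295 and 247 RPM at 20°C, with no overlap (log2 fold change -0.24, edgeR adjusted p = 0.0805). For the remaining 7 genes the 95% intervals of the log2 fold change lay between -0.31 and 0.48, and csr-1 had 547, 510 and 529 RPM at 25°C, against 519, 587 and 542 RPM at 20°C (-0.26 to 0.11).

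The difference between the 2 heat responses, tested directly as mut-16 minus wild-type, was negative for all 10 genes and past the threshold for all 10, beside 21.4% of all genes called lower in this test, and 0 were called higher (0 at an unadjusted p under 0.05, and 0 by DESeq2), beside 9.7%. It ran from -0.53 for ife-1 (SE 0.14, edgeR adjusted p = 0.0118) to -0.95 for glh-2 (SE 0.19, edgeR adjusted p = 0.00284), with -0.81 for pgl-1 (SE 0.11, edgeR adjusted p = 2.11e-04). This count depended on the scaling. With library totals, 5 of the 10 were called (pgl-1, glh-1, glh-2, glh-4 and csr-1), pgl-2, pgl-3, glh-3, deps-1 and ife-1 were not, and the calls over all genes turned from 1418 higher and 3129 lower to 3155 higher and 888 lower as their median moved to 0.19, from -0.10 with TMM. Against that median the 10 genes lay at -0.43 to -0.84 with TMM and at -0.43 to -0.85 with library totals. This distance hardly moves with the choice between the 2 scalings. With at least 10 counts in every library, it was -0.41 to -0.82. Without replicate 3 of mut-16 at 20°C, 9 were called, without ife-1 (-0.28). When only genes with at least 10 counts in every library were kept, 9 were again called, beside 9.58% of all genes lower and 20.4% higher, and ife-1 was not (-0.32, edgeR adjusted p = 0.104).

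**Figure D2:**
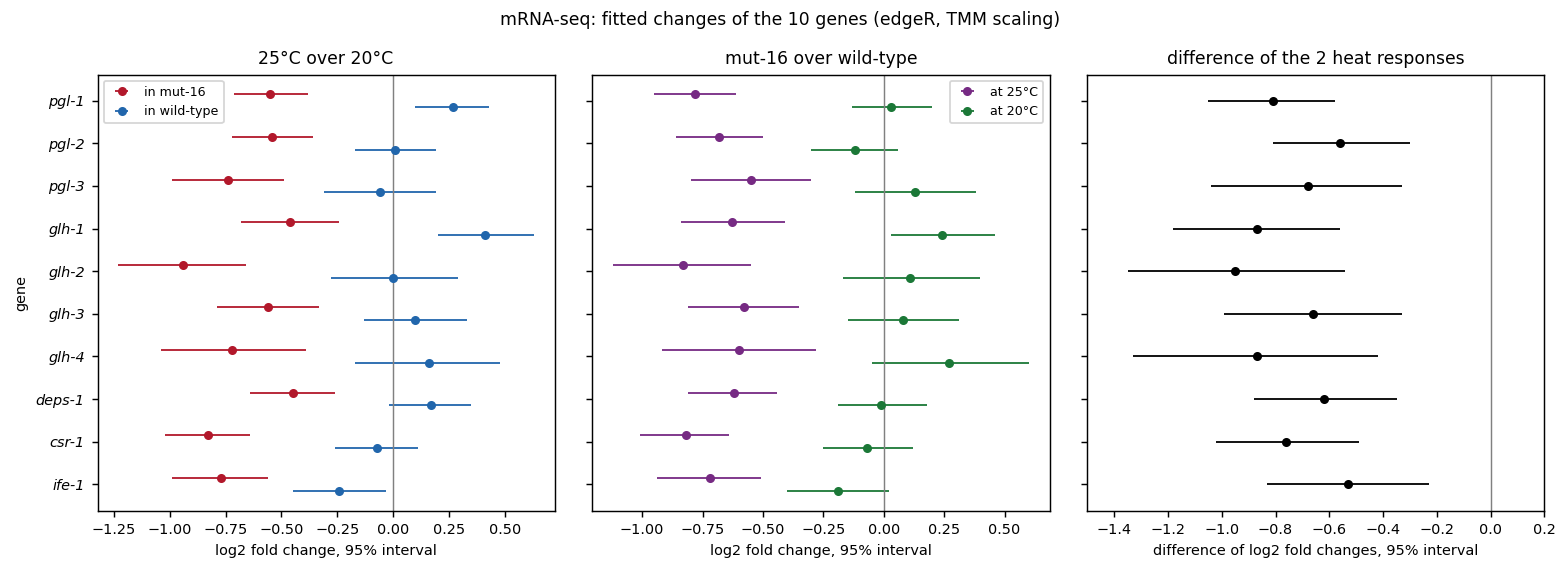
Fitted mRNA log2 fold changes (points) with 95% intervals (bars) for 25°C over 20°C within each genotype (left), mut-16 over wild-type at each temperature (middle) and the difference of the 2 heat responses (right), 1 gene per line. At 25°C and within mut-16 mutants all points lie left of 0, from -0.55 to -0.83 and from -0.45 to -0.94, while at 20°C they lie between -0.19 and 0.27.

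Ratios of 2 genes within a library do not depend on the scaling, and they show changes that the genotypes shared. The ratio of pgl-1 to csr-1 mRNA counts was 1.22 ± 0.0178 in mut-16 mutants at 25°C, against 1.01 ± 0.0353 at 20°C, and 1.19 ± 0.031 in wild-type at 25°C, against 0.94 ± 0.0456 at 20°C, with no overlap between temperatures in either genotype. The ratio of glh-1 to glh-2 was 3.45 ± 0.278 in mut-16 mutants at 25°C, against 2.47 ± 0.238 at 20°C, and 2.97 ± 0.0319 in wild-type at 25°C, against 2.23 ± 0.011 at 20°C. Thus pgl-1 stood higher relative to csr-1, and glh-1 relative to glh-2, at 25°C in both genotypes, though these ratios were not tested and 3 libraries against 3 cannot give an exact permutation p under 0.1. The ratio of pgl-1 to pgl-3 was 2.24 ± 0.131 in mut-16 mutants at 25°C, against 2.61 ± 0.133 in wild-type at 25°C, with the ranges apart (2.09 to 2.33, against 2.51 to 2.76).

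In RNA of whole animals, fewer germ cells and less RNA per germ cell cannot be told apart. The 9 germ cell markers (such as glp-1 and him-3) summed to 1429 to 1449 RPM in mut-16 mutants at 25°C, against 1950 to 1977 RPM in wild-type at 25°C, and 9 of 9 were called lower. The 7 oocyte markers (such as rme-2 and puf-5) summed to 6274 to 6533 RPM in mut-16 mutants at 25°C, against 9169 to 9372 RPM in wild-type at 25°C, and 7 of 7 were called lower, with a median log2 fold change of -0.74. Of all genes, 32.6% were called lower in this comparison. At 20°C the germ cell markers summed to 1830 to 1914 RPM in mut-16 mutants, against 1810 to 2047 RPM in wild-type, and the oocyte markers to 9472 to 9820 RPM, against 8618 to 10358 RPM. At 20°C 0 germ cell markers were called higher and 2 of 9 lower, and 1 oocyte marker of 7 was called higher and 0 lower. Of all genes, 25.9% were called higher and 11.2% lower at 20°C. Germ cell and oocyte markers were thus lower together with the P granule genes at 25°C, while at 20°C their summed levels overlapped between the genotypes. Sperm markers went the other way, at 31.6 to 32.4 RPM in mut-16 mutants at 25°C, against 4.34 to 6.36 RPM in wild-type at 25°C, and at 11.9 to 17.8 RPM in mut-16 mutants at 20°C, against 0.952 to 1.29 RPM in wild-type at 20°C, with spe-9 and spe-38 at 0 in at least 1 library. Of the somatic lists, muscle summed to 743 to 1435 RPM in mut-16 mutants at 25°C, against 494 to 619 RPM in wild-type at 25°C, intestine to 724 to 755 RPM, against 458 to 514 RPM, neurons to 163 to 172 RPM, against 159 to 164 RPM, and hypodermis to 1713 to 1946 RPM, against 878 to 1103 RPM, with dpy-7 and rol-6 at 0 in at least 1 library. At 25°C, 2 of 3 muscle, 2 of 4 intestine, 2 of 3 neuron and 3 of 3 hypodermis markers were called higher in mut-16 mutants. Of all genes, 41.1% were called higher. For neurons 1 marker was called lower, so that their sum does not describe each marker. The part of these cell types in the results was not tested.

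**Figure D3:**
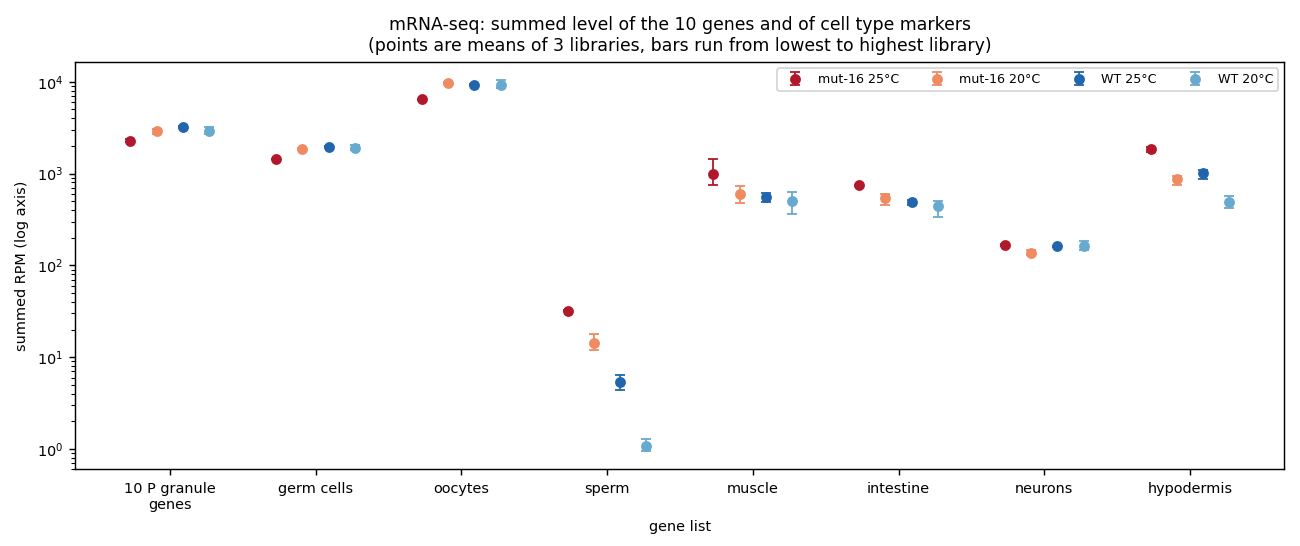
Summed mRNA level in RPM (vertical log axis) of the 10 P granule genes and of 7 lists of cell type markers (horizontal axis) in the 4 groups; points are means of 3 libraries and bars run from the lowest to the highest library. The 10 genes (2285 RPM in mut-16 mutants at 25°C, 3217 RPM in wild-type at 25°C), germ cell markers and oocyte markers are lowest in mut-16 mutants at 25°C, where sperm, muscle, intestine and hypodermis markers are highest. Neuron markers also have their highest mean there, with ranges that overlap.

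In a wider list of 30 other genes of germ granules, most were also lower in mut-16 mutants at 25°C in mRNA. The list holds factors for P granule assembly and segregation, RNA-binding regulators of maternal mRNAs and small RNA factors. In mut-16 mutants compared with wild-type at 25°C, 27 of 30 were lower and 2 higher, beside 32.6% of all genes lower and 41.1% higher, with a median log2 fold change of -0.57, or -0.73 against the median over all genes. At 20°C 3 of 30 were lower and 4 higher, beside 11.2% and 25.9% of all genes, so that the share lower lay near that of all genes. Between the temperatures, 27 were lower and 2 higher at 25°C in mut-16 mutants (median -0.65), beside 32.3% and 40.2% of all genes, and 0 were lower and 3 higher in wild-type, beside 9.78% and 22.6%. The difference of the heat responses was negative and past the threshold for 23 of 30, beside 21.4% of all genes, and positive for 0. With library totals, 17 of 30 were lower at 25°C in mut-16 mutants and 14 of 30 had a called negative difference. The 13 RNA-binding regulators were all lower at 25°C in mut-16 mutants, among them cgh-1, a DEAD-box helicase of germ granules, with 1462 ± 37.9 RPM at 25°C, against 2314 ± 323 RPM at 20°C (log2 fold change -0.98, SE 0.11), and gld-1, a translational repressor, with 770 ± 31.7 RPM at 25°C, against 1136 ± 48.6 RPM at 20°C (-0.87, SE 0.09). laf-1, a helicase related to the GLH proteins, fell further, to 114 ± 43.3 RPM at 25°C in mut-16 mutants, against 255 ± 25 RPM at 20°C (-1.48, SE 0.21). Its level in wild-type at 25°C was 178 ± 5.74 RPM, and its difference between the heat responses was -1.18 (SE 0.29, edgeR adjusted p = 0.0119), beside -0.95 for cgh-1 (SE 0.16) and -0.90 for gld-1 (SE 0.12).

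Among small RNA factors and relatives of the 10 genes, some had other patterns. prg-1, the Piwi Argonaute, was among the genes higher at 25°C in wild-type, with 375 ± 1.18 RPM at 25°C, against 273 ± 18 RPM at 20°C (log2 fold change 0.44, SE 0.08), as was ife-2, an eIF4E gene, with 31.2 ± 0.875 RPM, against 24.8 ± 0.912 RPM (0.31, SE 0.08). wago-4, an Argonaute of inherited silencing, was lower in mut-16 mutants at both temperatures, with 125 ± 6.6 RPM against 203 ± 8.67 RPM in wild-type at 25°C (-0.90, SE 0.09) and 137 ± 0.292 RPM against 195 ± 20.8 RPM in wild-type at 20°C (-0.42, SE 0.09). vbh-1, a helicase related to the GLH proteins, was higher in mut-16 mutants at 20°C, with 551 ± 37.5 RPM, against 453 ± 11 RPM in wild-type at 20°C (0.37, SE 0.08), and laf-1 was lower at 25°C, with a log2 fold change of -0.85 (SE 0.21). The clearest exception was ife-5, an eIF4E gene closely related to ife-1. It had 79.6 ± 5.01 RPM in mut-16 mutants at 25°C, against 13.8 ± 0.882 RPM in wild-type at 25°C (2.32, SE 0.12, edgeR adjusted p = 4.25e-10), and 56.6 ± 1.49 RPM in mut-16 mutants at 20°C, against 11.2 ± 2.23 RPM in wild-type at 20°C (2.42, SE 0.12, edgeR adjusted p = 2.32e-10).

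Over the 12 mRNA libraries, the genes whose log2 RPM followed pgl-1 most closely, among 7551 genes with at least 10 RPM on average and by the root mean square (RMS) difference of centred values, were cpg-4 (0.0497), K07E8.7 (0.0538) and pigg-1 (0.0617), where pgl-1 itself varied by 0.21. For csr-1 they were ifet-1 (0.0601), fubl-1 (0.0709) and clk-2 (0.074), with 0.274 for csr-1 itself, and for glh-1 prmt-5 (0.0854), T23H2.3 (0.0865) and gars-1 (0.0917), with 0.2 for glh-1 itself. Within the 10, the closest to pgl-1 was deps-1 (0.117) and the farthest ife-1 (0.247), and the closest to csr-1 was glh-2 (0.109) and the farthest glh-1 (0.257). Each of these 3 genes thus had genes outside the set that followed it more closely than any of the other 9 did. With 7551 genes searched against 9, this does not show how alike the members are. These libraries fall into 4 groups, so the measure is a description.

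Small RNAs mapping to the 10 genes were measured in separate libraries. Counts per gene do not tell sense from antisense, length or Argonaute, and each value is a share of its library, so that it also depends on how many small RNAs map to all other genes. By group means, small RNA reads per kilobase of exon ran from 21.8 RPM for pgl-2 to 622 RPM for glh-4 in mut-16 mutants at 25°C, and from 32.8 RPM for pgl-2 to 434 RPM for glh-4 in wild-type at 20°C. After glh-4 came pgl-1 (343 RPM per kilobase), csr-1 (309) and glh-1 (282) in mut-16 mutants at 25°C, and glh-1 (299), csr-1 (285) and pgl-1 (267) in wild-type at 20°C. The order of small RNA levels differed from that of mRNA levels. glh-4 had 12.9 small RNA RPM for each mRNA RPM in mut-16 mutants at 25°C, against 7.76 in wild-type at 20°C, while ife-1, among the 3 highest in mRNA per kilobase, had 0.39 and 0.158.

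**Figure D4:**
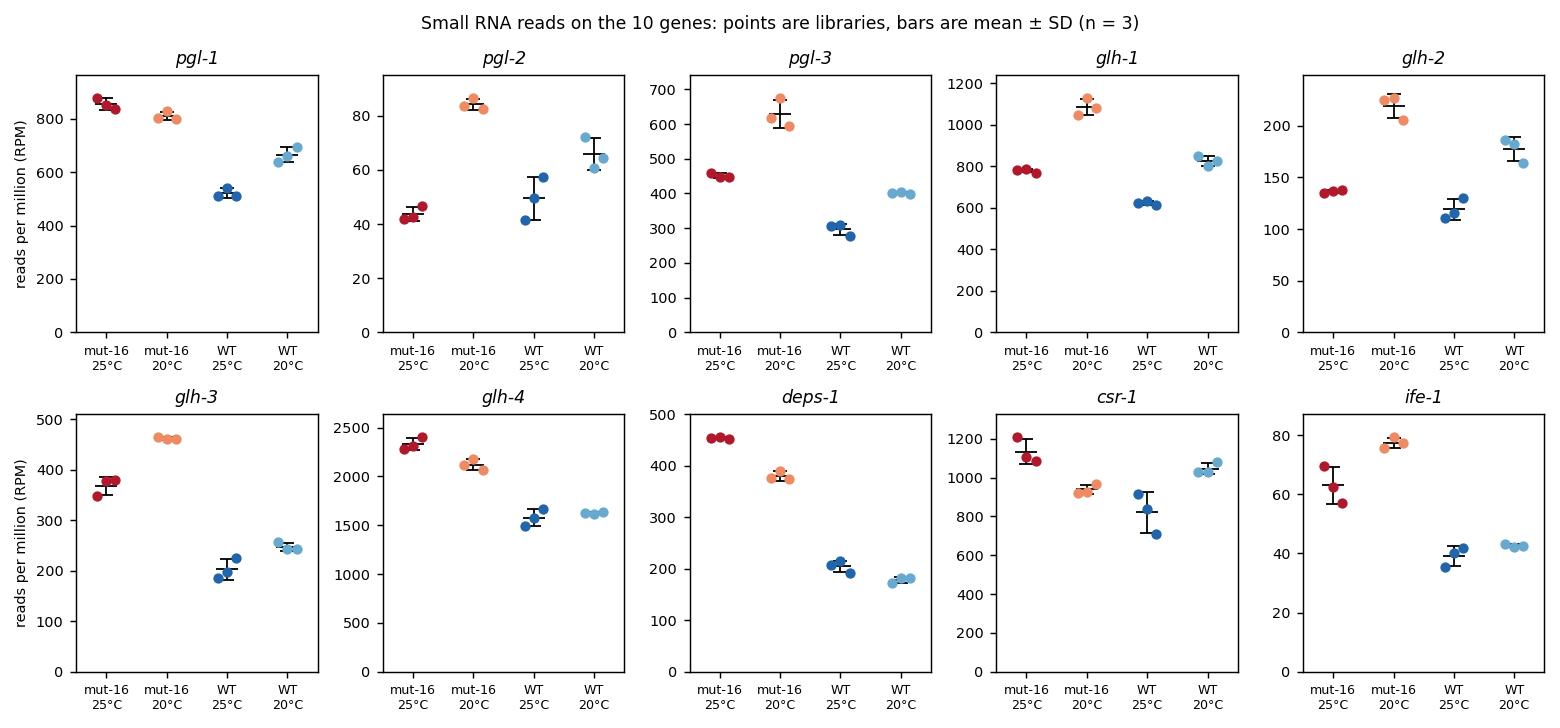
Small RNA reads in RPM (vertical axes, each from 0) on the 10 genes in the 4 groups (horizontal axes); points are the 3 libraries of a group, and bars are the mean ± SD. For deps-1 all 6 mut-16 libraries (374 to 455 RPM) lie above all 6 wild-type libraries (172 to 214 RPM), while csr-1 is above wild-type in mut-16 mutants at 25°C but not at 20°C.

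At 25°C, small RNA reads on 9 of the 10 genes were higher in mut-16 mutants than in wild-type, beside 31.3% of the 16025 genes tested that were higher, and 0 were lower (0 at an unadjusted p under 0.05, and 0 by DESeq2), beside 47.1% of all genes lower. The 10 genes together held 6575 to 6656 RPM in mut-16 mutants at 25°C, against 4420 to 4516 RPM in wild-type at 25°C. deps-1 changed most, with 454, 455 and 451 RPM in mut-16 mutants at 25°C, against 207, 214 and 192 RPM in wild-type at 25°C (log2 fold change 1.21, SE 0.07, edgeR adjusted p = 5.30e-10). glh-3 had 348, 377 and 380 RPM in mut-16 mutants at 25°C, against 185, 198 and 225 RPM in wild-type at 25°C (0.93, SE 0.07). pgl-1 had 878, 850 and 836 RPM in mut-16 mutants at 25°C, against 512, 542 and 511 RPM in wild-type at 25°C (0.78, SE 0.06). These 3 genes did not overlap between the genotypes. csr-1 had 1208, 1105 and 1087 RPM in mut-16 mutants at 25°C, against 918, 840 and 707 RPM in wild-type at 25°C (0.52, SE 0.10, edgeR adjusted p = 3.02e-04). The exception was pgl-2, with 42, 42.7 and 46.6 RPM in mut-16 mutants at 25°C, against 41.4, 49.8 and 57.3 RPM in wild-type at 25°C (95% interval -0.29 to 0.10).

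At 20°C, again 9 of the 10 were higher in mut-16 mutants, beside 33.6% of all genes, and 0 were lower (0 at an unadjusted p under 0.05, and 0 by DESeq2), beside 46.8% of all genes. deps-1 had 375, 390 and 374 RPM in mut-16 mutants at 20°C, against 172, 181 and 182 RPM in wild-type at 20°C (log2 fold change 1.19, SE 0.07). glh-3 had 464, 460 and 461 RPM in mut-16 mutants at 20°C, against 256, 243 and 242 RPM in wild-type at 20°C (1.00, SE 0.07), and ife-1 had 75.8, 79.3 and 77.2 RPM, against 43.1, 42.1 and 42.4 RPM (0.96, SE 0.07). Here the exception was csr-1, with 922, 927 and 968 RPM in mut-16 mutants at 20°C, against 1028, 1030 and 1080 RPM in wild-type at 20°C. In RPM every mut-16 library of csr-1 at 20°C was below every wild-type one, but the 95% interval of its log2 fold change ran from -0.27 to 0.16. Fitted on the 20°C groups alone, it was called lower (-0.13).

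The number of genes called higher in mut-16 mutants rests on which genes set the scale. When only genes with at least 10 counts in every library were kept, 8195 of the 16025, the median of all genes moved to 0.03 at 25°C, from -0.58, and to -0.01 at 20°C, from -0.45. Of the 10 genes, 6 were then higher and 1 lower (pgl-2) at 25°C, beside 39.8% of all genes higher and 38% lower. At 20°C 4 were higher and 1 lower (csr-1), beside 38.2% and 39.8% of all genes, so that the share higher at 20°C was near that of all genes. The signs of glh-2 at both temperatures and of pgl-1 at 20°C then turned to -0.05, -0.04 and -0.06, with adjusted p from 0.28 to 0.509. The genes called higher at both temperatures with this filter too were pgl-3, glh-3, deps-1 and ife-1. Within a library, the ratio of deps-1 to glh-1 small RNA counts was 0.582 ± 0.00391 in mut-16 mutants at 25°C, against 0.328 ± 0.0128 in wild-type at 25°C. At 20°C it was 0.349 ± 0.00706 in the mutants, against 0.216 ± 0.012 in wild-type. This ratio, which does not depend on the scale, did not overlap between the genotypes at either temperature. The targeted gene itself had small RNA levels of 101, 103 and 105 RPM in mut-16 mutants at 25°C, against 208, 218 and 233 RPM in wild-type at 25°C (log2 fold change -1.03, SE 0.06).

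**Figure D5:**
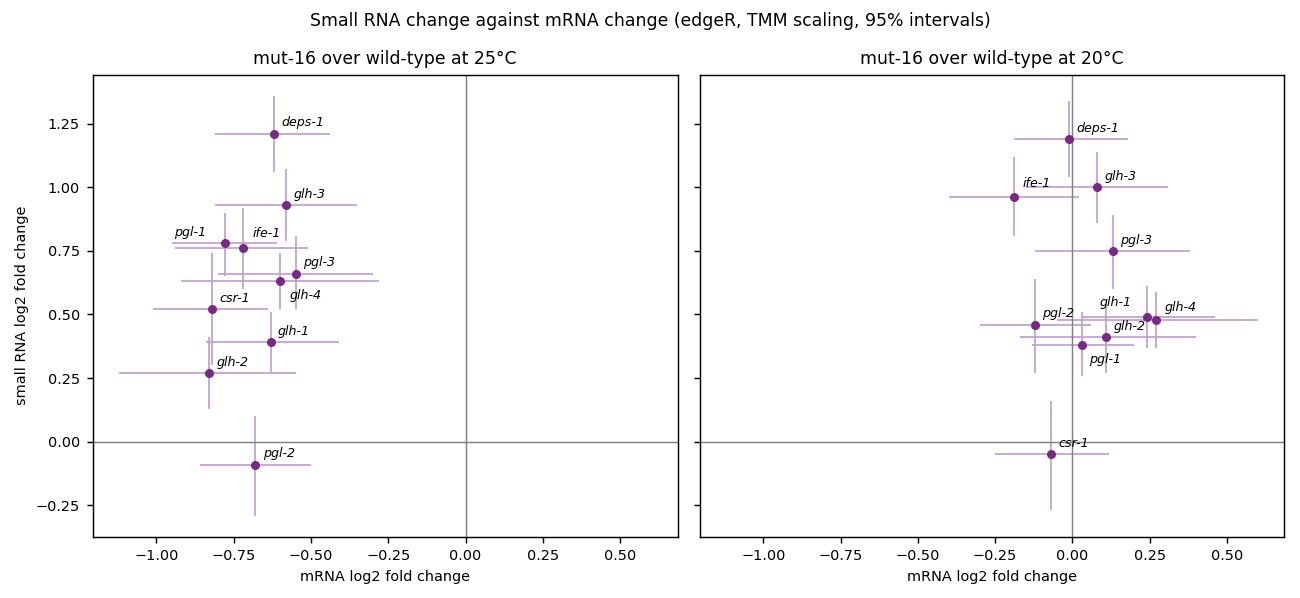
Fitted small RNA log2 fold change (vertical axis) against fitted mRNA log2 fold change (horizontal axis) of mut-16 over wild-type, at 25°C (left) and 20°C (right), with 95% intervals; each point is 1 gene. At 25°C all 10 points lie left of 0 and 9 lie above 0, and at 20°C the points spread around 0 in mRNA (-0.19 to 0.27) while 9 lie above 0 in small RNA (0.38 to 1.19).

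Between the temperatures, small RNA reads changed in both directions. In mut-16 mutants 3 genes were higher at 25°C and 6 lower, beside 8.29% of all genes higher and 17.3% lower. pgl-2 fell most, with 42, 42.7 and 46.6 RPM at 25°C, against 83.6, 86.6 and 82.5 RPM at 20°C (log2 fold change -0.88, SE 0.09). glh-2 had 135, 137 and 138 RPM at 25°C, against 225, 227 and 206 RPM at 20°C (-0.62, SE 0.06), and glh-1 had 783, 786 and 770 RPM, against 1050, 1130 and 1080 RPM (-0.42, SE 0.06). The genes that rose were csr-1 (0.33, SE 0.10), deps-1 (0.32, SE 0.07) and glh-4 (0.20, SE 0.05), and those that fell less were pgl-3 (-0.42), glh-3 (-0.27) and ife-1 (-0.24). The calls of csr-1, glh-4 and ife-1 were the least firm, with csr-1 lost on leaving out any 1 of the 6 mut-16 libraries (adjusted p 0.0568 to 0.126). The call of glh-4 was lost without replicate 2 or replicate 3 of mut-16 at either temperature, and that of ife-1 without replicate 1 or 3 of mut-16 at 20°C or replicate 2 or 3 of mut-16 at 25°C. These counts also rest on which genes set the scale. With at least 10 counts in every library, 4 genes were higher and 4 lower, beside 23.3% of all genes higher and 17.5% lower. pgl-1 was then called higher (0.28, edgeR adjusted p = 0.00126), and the calls of glh-3 (-0.13, edgeR adjusted p = 0.0696) and ife-1 (-0.10, edgeR adjusted p = 0.272) were lost. DESeq2 called 3 higher and 5 lower, without ife-1, and without a filter the calls of glh-4 (edgeR adjusted p = 0.337) and ife-1 (edgeR adjusted p = 0.0784) were lost. Calls over all genes stood at 1908 higher and 1433 lower with at least 10 counts in every library, beside 1328 and 2767 in the fit of all 16025 genes.

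In wild-type, 1 gene was higher at 25°C and 6 lower, beside 20.2% of all genes higher and 17% lower. With library totals those calls over all genes stood at 2604 higher and 3677 lower, beside 3239 and 2731 with TMM, and csr-1 was then also called lower, for 7 of the 10. glh-2 had 111, 116 and 130 RPM at 25°C, against 186, 182 and 164 RPM at 20°C (log2 fold change -0.49, SE 0.07). pgl-1 had 512, 542 and 511 RPM at 25°C, against 640, 661 and 695 RPM at 20°C (-0.25, SE 0.06). glh-1, pgl-2, pgl-3 and glh-3 were also lower, with log2 fold changes of -0.20 to -0.34. The gene that was higher was deps-1, with 207, 214 and 192 RPM at 25°C, against 172, 181 and 182 RPM at 20°C (0.30, SE 0.07). That call was lost on leaving out replicate 1, 2 or 3 of wild-type at 20°C or replicate 1 or 2 of wild-type at 25°C (adjusted p 0.0731 to 0.152).

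The 2 heat responses of the small RNAs differed for 3 of the 10 genes, 2 with a positive and 1 with a negative difference (mut-16 minus wild-type), beside 5.7% and 12.6% of all genes. csr-1 small RNAs stood at 1208, 1105 and 1087 RPM in mut-16 mutants at 25°C, against 922, 927 and 968 RPM at 20°C, and at 918, 840 and 707 RPM in wild-type at 25°C, against 1028, 1030 and 1080 RPM at 20°C. The groups did not overlap in either genotype and moved in opposite directions, with a difference of 0.58 (SE 0.14, edgeR adjusted p = 0.0131). For pgl-1 the difference was 0.39 (SE 0.08, edgeR adjusted p = 0.00493), and for pgl-2 it was -0.55 (SE 0.13, edgeR adjusted p = 0.00804). The call of pgl-2 was lost without replicate 2 or replicate 3 of wild-type at 20°C or replicate 2 of wild-type at 25°C (adjusted p 0.0549 to 0.0632). With at least 10 counts in every library, 3 differences were positive, beside 14.6% of all genes, and 1 negative, beside 12.8%, the addition being glh-4 (0.28, edgeR adjusted p = 0.00843).

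The pseudogene T08D2.3, which shares much of its sequence with glh-4 and was singled out after its values were seen, went the opposite way to glh-4 in small RNA. It had small RNA levels of 11.6 to 23.3 RPM in mut-16 mutants at 25°C, against 113 to 126 RPM in wild-type at 25°C (log2 fold change -2.60, SE 0.19, edgeR adjusted p = 9.80e-08), and 14.1 to 16.8 RPM in mut-16 mutants at 20°C, against 62.6 to 72.3 RPM in wild-type at 20°C (-2.05, SE 0.19). Its mRNA was lower, the same direction as that of glh-4. It stood at 1.78 to 3.39 RPM in mut-16 mutants at 25°C, against 16 to 17.8 RPM in wild-type at 25°C (-3.11, SE 0.23). Reads that fit both genes cannot be assigned with certainty, so glh-4 was also read together with T08D2.3. The pair summed to 2349 small RNA RPM in mut-16 mutants at 25°C, against 1700 RPM in wild-type at 25°C, and to 182 mRNA RPM, against 253 RPM, with no overlap between the genotypes in either assay. In small RNA-seq the sum was a whole number in 0 of 12 libraries, so reads of the pair may also have been divided with other genes. The pair glh-1 and glh-2 summed to 667 mRNA RPM in mut-16 mutants at 25°C, against 924 RPM in wild-type at 25°C, also with no overlap.

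Small RNAs on the other 30 germ granule genes were also mostly higher in mut-16 mutants, 26 of 30 at 25°C and 28 of 30 at 20°C, beside 31.3% and 33.6% of all genes, with medians of 0.91 and 0.86 on the log2 scale, and 1 was lower at each temperature. With at least 10 counts in every library, 23 of the 29 tested were higher at 25°C and 19 of 29 at 20°C, beside 39.8% and 38.2% of all genes, with medians of 0.58 and 0.41, and 2 were lower at each temperature. cgh-1 had 786 ± 29.4 RPM in mut-16 mutants at 20°C, against 305 ± 13.7 RPM in wild-type at 20°C (log2 fold change 1.47, SE 0.08), and wago-1, an Argonaute of the silencing pathway that depends on Mutator foci, had 719 ± 12.5 RPM, against 280 ± 4.34 RPM (1.46, SE 0.05). At 25°C mex-5, which sets up the polarity of the zygote, had 320 ± 15.2 RPM in mut-16 mutants, against 135 ± 14.2 RPM in wild-type (1.29, SE 0.09), and alg-3, an Argonaute of sperm development, had 10.9 ± 2.13 RPM, against 3.49 ± 1.03 RPM (1.77, SE 0.30). meg-4, a factor of P granule assembly, was lower, at 29.7 ± 3.98 RPM in mut-16 mutants at 25°C, against 88.2 ± 2.53 RPM in wild-type at 25°C (-1.51, SE 0.11). ife-5 small RNAs stood at 74.1 ± 4.97 RPM in mut-16 mutants at 20°C, against 227 ± 24.1 RPM in wild-type at 20°C (-1.51, SE 0.10), so that ife-5 had less small RNA and more mRNA in mut-16 mutants, while ife-1 had more small RNA in mut-16 mutants at 20°C and its mRNA there had a 95% interval of -0.40 to 0.02.

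Germ cell markers also drew more small RNA reads in mut-16 mutants, with 2672 to 2722 RPM in mut-16 mutants at 25°C, against 1636 to 1722 RPM in wild-type at 25°C, and 3190 to 3273 RPM in mut-16 mutants at 20°C, against 1853 to 2001 RPM in wild-type at 20°C. Sperm markers drew 24.6 to 29.8 RPM in mut-16 mutants at 25°C, against 158 to 245 RPM in wild-type at 25°C. That sum does not describe each marker, since 2 of 6 were called higher, 2 lower and 2 neither, with a median log2 fold change of 0.32. Their part in the small RNA results was not tested.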

How the data were processed

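mRNA-seq and small RNA-seq libraries of whole adults were analysed, 12 of each. The authors mapped reads to the C. elegans genome (WS258), with Cutadapt, HISAT2 and Salmon named in their notes, and deposited expected counts per gene. Versions, strand and k-mer settings are not given in the sources used here. Rows with the same gene name were summed and the expected counts rounded. ATAC-seq samples were not analysed here.

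Genes were tested with edgeR 4.0.16 (quasi-likelihood, robust, TMM, filterByExpr) in R 4.3.3 on all 12 libraries of an assay, with 1 coefficient per group and Benjamini-Hochberg adjustment over all genes tested, at an adjusted p under 0.05. The steps were tested on simulated data. Alternatives were DESeq2 1.42.0, library totals, no filter, at least 10 counts in every library, a replicate block, the groups compared alone, the letters RE in some mRNA titles as a covariate, and leaving out each library. Among mRNA titles, only those of replicate 3 of wild-type and replicate 3 of mut-16 at 20°C lacked RE, so this mark was unbalanced between the temperatures. Positions and promoters came from the WBcel235 Ensembl annotation and genome. The members and lists were chosen with earlier results of these data known. Counts of calls cover all 10 members in each comparison and the figures of levels show all 10, but the text does not name every member each time. Of the other lists, at most the 3 called genes with the largest change and at least 10 RPM in the higher group were eligible to be named. The 3 most similar genes were named for pgl-1, glh-1 and csr-1. Intervals from the fit are at 95%.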

Additional observations from a re-analysis of the deposited data

Results flagged for a closer look

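The heat responses of the 2 genotypes differed by a test of the difference itself (mut-16 minus wild-type, edgeR) for 13 results. In mRNA-seq the differences were -0.81 for pgl-1, -0.56 for pgl-2, -0.68 for pgl-3, -0.87 for glh-1, -0.95 for glh-2, -0.66 for glh-3, -0.87 for glh-4, -0.62 for deps-1, -0.76 for csr-1 and -0.53 for ife-1 on the log2 scale. With library totals 5 of these 10 were past the threshold, 9 were when genes under 10 counts in any library were left out, and germ cell and oocyte markers fell in the same group. In small RNA-seq the differences were 0.39 for pgl-1, 0.58 for csr-1 and -0.55 for pgl-2. The part of cell composition in these values was not tested.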

How the results depend on the processing

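The 10 mRNA falls in mut-16 mutants at 25°C against wild-type stayed past the threshold in every alternative run. With library totals 5 of 10 genes were called in the mRNA difference of heat responses. In wild-type mRNA, 1 gene was called higher at 25°C without a filter, and 1 lower with DESeq2, without a filter or with the groups compared alone. In mut-16 mutants at 20°C, 1 gene (ife-1) was called lower in mRNA with DESeq2 or library totals and 2 (pgl-2 and ife-1) without a filter. In small RNA, 1 gene was called with a positive difference of heat responses without a filter. With at least 10 counts in every library, 4 were higher and 1 lower in mut-16 mutants at 20°C (beside 38.2% and 39.8% of all genes) and 1 lower at 25°C, and signs turned for glh-2 (-0.04 at 20°C, -0.05 at 25°C) and pgl-1 (-0.06 at 20°C). With the groups compared alone, 1 was lower at 20°C. The cause of these shifts was not tested. With that filter, the mRNA difference of heat responses was called lower for 9 of 10 genes, without ife-1 (adjusted p = 0.104), and calls over all genes stood at 2242 positive and 1055 negative. In small RNA by heat in mut-16 mutants it gave 4 higher and 4 lower, and over all genes 1908 higher and 1433 lower.

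On leaving out 1 library, mRNA counts ran from 9 to 10 negative differences of heat responses, 1 to 2 higher by heat in wild-type, and 0 to 2 higher and 0 to 1 lower in mut-16 mutants at 20°C. Over all genes (14584 to 15035 tested), negative differences ran from 2305 to 3899, and genes higher by heat in wild-type from 2650 to 3039. In mut-16 mutants at 20°C, 2848 to 3570 of all genes were called higher and 1279 to 2289 lower. Small RNA counts ran from 2 to 3 positive and 0 to 1 negative differences, 1 to 2 higher and 5 to 6 lower by heat in mut-16 mutants, and 0 to 1 higher and 6 to 7 lower by heat in wild-type. Over all genes (16483 to 16807 tested), 638 to 1556 differences were positive and 899 to 2019 negative. By heat, 915 to 1022 of all genes were higher and 2211 to 2866 lower in mut-16 mutants. In wild-type 2233 to 3569 were higher and 2527 to 3401 lower.

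Correlations gave no clear pairing of the libraries by replicate number. They cannot show whether same-numbered libraries shared a culture or preparation. Same-numbered libraries correlated at -0.076 to 0.189 in mRNA and at -0.133 to 0.082 in small RNA, and 6 of 18 and 1 of 18 comparisons were best with their own number. With the replicate block all 10 genes stayed lower in mRNA in mut-16 mutants at 25°C, and among the genes named the block changed 1 call in each assay, mut-16 itself (-0.43) and alg-3 (0.81). Sign changes between values that passed no threshold were not counted.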
